A study of Mus musculus with 12 samples.

Results

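The histone H3 lysine 9 demethylases are the enzymes that take methyl groups off the residue to which the methyltransferase G9a adds them. They were taken here as 9 genes, Kdm1a, Kdm3a, Kdm3b, Jmjd1c, Kdm4a, Kdm4b, Kdm4c, Phf8 and Phf2, and as every probe set annotated to exactly one of them, which gave 19 of the 45101 probe sets on the array. The annotation names 18194 genes in all by a probe set of their own. The measurements are Affymetrix expression arrays of MEL cells, a mouse line from an erythroid leukemia that starts red cell maturation in dimethyl sulfoxide (DMSO). There were 3 G9a knockdown arrays and 3 wild type arrays, numbered 1 to 3 in each group, all from cells given 2% DMSO for 4 days. The knockdown was induced with doxycycline at 5 µg/ml. The protocol is worded alike for both groups, so whether the wild type cells received doxycycline is not known, and the labels name neither the knockdown construct nor the number of clones. They do not say whether replicates are separate cultures, so the p-values reflect array-to-array spread that could be technical.

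Lysine 9 of histone H3 carries up to several methyl groups. G9a and its partner GLP make the mono- and dimethylated forms, of which the dimethylated one marks silenced genes outside constitutive heterochromatin. Demethylases fall into separate chemical classes. Kdm1a, also called LSD1, is an amine oxidase that uses FAD and acts on mono- and dimethylated lysine, at lysine 4 as well as lysine 9. It works in erythroid cells within a repressor complex with CoREST, histone deacetylases and the factor Gfi1b. Which lysine it acts on in these cells was not measured. The other genes encode Jumonji C (JmjC) enzymes, which use iron, oxygen and 2-oxoglutarate. Among these the Kdm3 family (Kdm3a, Kdm3b and Jmjd1c) is known for mono- and dimethylated lysine 9, the Kdm4 family (Kdm4a, Kdm4b and Kdm4c) for the trimethylated form, and Phf8 and Phf2 carry a PHD finger that binds methylated lysine 4 of the same histone tail.

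Promoter sequence is shown for 3 members, none of which passed the test below. Kdm1a and Phf8 had differences of the same sign in all 3 numbered array pairs at their brighter tested probe set. In both signal summaries used below, 10.4% of all tested probe sets were higher and 11.3% lower in all 3 pairs. Kdm3a had the probe set that spread most widely over the arrays among the tested member probe sets. RefSeq (GRCm38.p6) windows from 250 bases before to 50 after a transcript start were found for 7 of the 9 genes, in 11 windows. The stretches printed are the parts of a window that lie outside the annotated gene, at chr4:136602788-136602973 on the minus strand for Kdm1a, chr6:71632991-71633167 on the minus strand for Kdm3a and chrX:151520422-151520640 on the plus strand for Phf8. They read 5′ to 3′ along the gene, and capitals mark matches on either strand to the hypoxia response element core (ACGTG or GCGTG), the GATA motif (AGATAA or TGATAA) or the GC box (GGGCGG).
Kdm1a: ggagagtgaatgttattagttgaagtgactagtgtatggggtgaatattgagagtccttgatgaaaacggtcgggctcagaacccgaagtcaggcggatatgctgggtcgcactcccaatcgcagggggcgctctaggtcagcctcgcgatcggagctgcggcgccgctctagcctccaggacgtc
Kdm3a: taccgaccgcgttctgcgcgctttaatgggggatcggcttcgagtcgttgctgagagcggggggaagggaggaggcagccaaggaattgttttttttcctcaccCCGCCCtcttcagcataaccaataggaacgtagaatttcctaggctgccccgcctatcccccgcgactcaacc
Phf8: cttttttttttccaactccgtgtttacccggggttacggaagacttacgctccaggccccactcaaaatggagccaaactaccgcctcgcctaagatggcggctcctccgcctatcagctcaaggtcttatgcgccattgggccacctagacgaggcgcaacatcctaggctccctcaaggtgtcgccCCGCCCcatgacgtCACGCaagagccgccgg
Kdm3a has 3 windows, and the counts below are for the one printed, which holds its outermost start. The 3 full windows printed in part were rich in CpG, with 29 for Kdm1a, 24 for Kdm3a and 26 for Phf8, against a median of 7 over all 32851 windows. The hypoxia core was present in all 3 of them, with 3 matches for Kdm1a (all past the start, outside the printed stretch), 1 for Kdm3a and 2 for Phf8. It was also present in 43.8% of all windows. Among the other members, Kdm4c and Jmjd1c each had a window with the core and a window without, and the Kdm4a and Phf2 windows lacked it. The other Kdm3a windows held 0 cores each, with 4 and 0 GC boxes and 40 and 0 CpG. The GC box occurred 3 times for Kdm3a, once for Phf8 and not for Kdm1a, and in 35.7% of all windows. The GATA motif was in none of these 3 windows and in 18.6% of all windows. Among the members it was found in 1 Kdm4c window, which held 2 matches. A CACGTG stretch counts as 2 core matches, and none of the 3 windows holds one. A match describes letters in the window, not a bound site.

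The targeted gene was checked first. Ehmt2, which encodes G9a, read 6.67, 7.33 and 7.58 in the knockdown arrays at probe set 1460692_at, against 9.92, 10.03 and 10.23 in wild type (GCRMA log2 levels). It fell by 2.87 on the log2 scale (95% interval -3.24 to -2.49, limma adjusted p = 0.0316 when the replicate number was a term in the fit and 0.0719 when it was not). The dimmer Ehmt2 probe set, 1426888_at, read 4.29, 4.28 and 4.16 in the knockdown, against 7.43, 7.07 and 6.82 in wild type, and fell by 2.86, with a limma adjusted p of 0.0278 when the number was a term and 0.0216 when it was not. The erythroid identity of the cells was checked with 10 markers, of which 8 were annotated on the array and all 8 passed the filter, which were Gata1, Klf1, Alas2, Epor, Epb42, Slc4a1, Tfrc and Nfe2. None of them passed the test, and 5 were above and 3 below 0, from 0.40 for Klf1 to -0.30 for Nfe2. Tfrc, at -0.23, had no overlap between the groups in GCRMA, as had 12.4% of all tested probe sets. In MAS5 its groups overlapped, with a difference of -0.019. The summed log2 level of the 8 markers was 93.2 to 94.7 in the knockdown and 93.1 to 94.0 in wild type. Of markers of other cells, 0 lymphoid and 0 fibroblast or endothelial genes passed the filter. Of 9 annotated myeloid markers 3 passed, with a summed level of 18.42 to 20.01 in the knockdown and 16.88 to 18.35 in wild type. The lowest knockdown sum was thus only just above the highest wild type sum. The 3 were Prtn3, Spi1 and Csf1r, with log2 differences of 1.19, 0.42 and -0.049 (limma adjusted p 0.210, 0.364 and 0.913). The groups overlapped for each of them, and Prtn3 read 3.97 to 6.30, near the filter. The granule gene Mpo read at most 2.00 in all 6 arrays. Of 7 annotated megakaryocyte markers 2 passed, with sums of 18.1 to 20.1 in the knockdown and 20.0 to 20.5 in wild type. These were Itga2b, at -0.71 and without overlap (limma adjusted p = 0.226), and Pf4, at -0.12. Whether the myeloid and megakaryocyte transcripts came from other cells or from the MEL cells themselves was not tested. Their part in the values below was not tested either. In bulk RNA, fewer cells of a type and less RNA per cell cannot be told apart.

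All 9 demethylase genes were measured above the filter (log2 4 in at least 3 arrays), through 11 of their 19 probe sets. None of the 11 passed the test. In the fit blocked by replicate number, 0 passed an adjusted p of 0.05 in limma, where the background over the array was 0.0117%. That is 2 of 17028 probe sets, both lower and both of Ehmt2 itself, so no gene other than the target was called. The members' adjusted p ran between 0.420 and 0.978. At an unadjusted p under 0.05 there were also 0 of the 11, against 13.7% of all tested probe sets. Without the block the counts were again 0 of 11 by both thresholds (background 0.00587% and 5.87%), and likewise in the MAS5 summary (background 0% and 10.6%). One probe set per gene, the tested one with the highest mean, is called representative below. Over the 9 representatives the log2 difference, knockdown minus wild type, had a median of 0.083, against -0.0083 over all tested probe sets, and 7 of 9 were above 0, against 48.3% of all tested. The median absolute difference was 0.087 for the 9 genes and 0.13 for all tested probe sets. These backgrounds hold every tested probe set, also where a gene has several, and were not counted for representatives alone. In the blocked GCRMA fit the 95% intervals of the representatives together spanned 0.78-fold to 1.36-fold. Other fits gave some wider intervals. On the log2 scale, Kdm3a had -0.57 to 0.75 without the block and Kdm4b had -0.69 to 0.19 in MAS5.

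**Figure D1:**
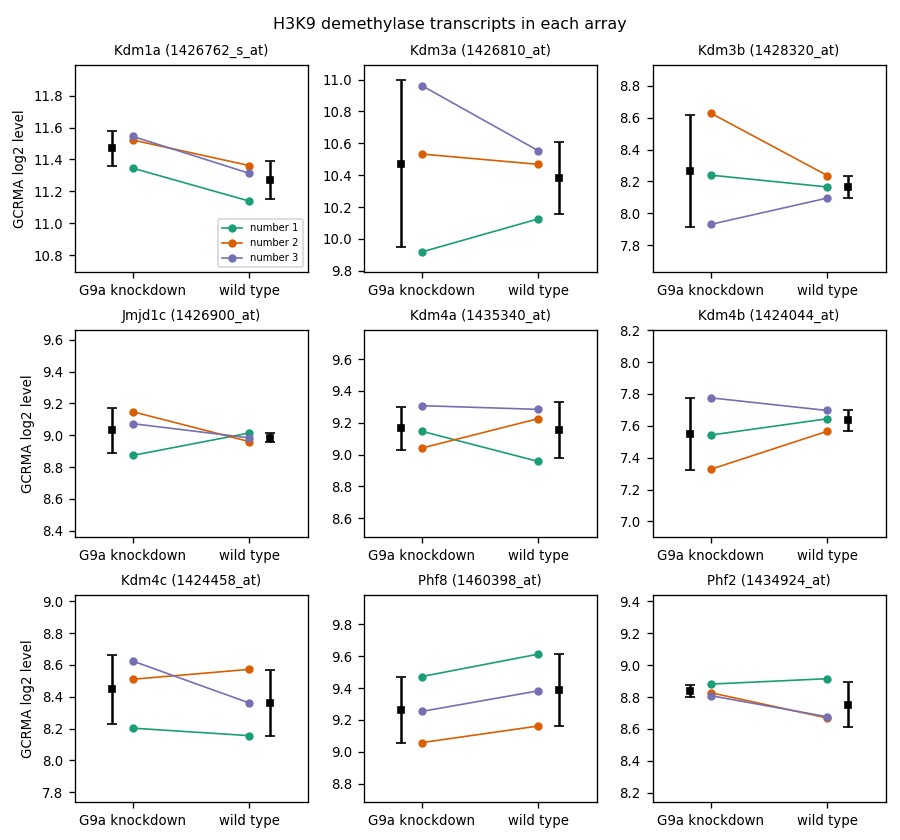
GCRMA log2 level (y axis, the same height of range in every panel) of the representative probe set of each of the 9 demethylase genes in the G9a knockdown and wild type arrays (x axis), with lines joining arrays of the same replicate number and black squares giving mean ± SD (n = 3 each). The groups overlap in all 9 panels, and the Kdm1a and Phf8 lines run the same way for all 3 numbers.

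Kdm1a showed the largest difference among the tested member probe sets and did not pass the test. At probe set 1426762_s_at it read 11.35, 11.52 and 11.54 in knockdown arrays 1 to 3, against 11.14, 11.36 and 11.31 in wild type arrays 1 to 3. Each knockdown array was above the wild type array of its number, by 0.21, 0.16 and 0.23, but knockdown 1 lay below wild type 2, so the groups overlapped. The means were 11.47 ± 0.11 in the knockdown and 11.27 ± 0.12 in wild type (SD, n = 3 each), a log2 difference of 0.20 (SE 0.093, 95% interval -0.035 to 0.43, limma adjusted p = 0.420), which is 1.15-fold with an interval of 0.976 to 1.35. In MAS5 the intensities were 3636, 3828 and 4211 in the knockdown and 3029, 3625 and 3724 in wild type. MAS5 thus had the same sign in all 3 numbers, with a difference of 0.17 on the log2(intensity + 1) scale (adjusted p = 0.611 in limma). Higher in all 3 numbers in both summaries was 1 of the 11 tested member probe sets, against a background of 10.4%.

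The second Kdm1a probe set, 1426761_at, was less uniform. It read 8.84, 9.05 and 9.01 in the knockdown and 8.97, 8.81 and 8.66 in wild type, and number 1 ran against the others, with -0.12 beside 0.24 and 0.35. Its difference was 0.15 (interval -0.16 to 0.47, limma adjusted p = 0.628). In MAS5 the same probe set had intensities of 1217, 1248 and 1267 in the knockdown and 1149, 1119 and 1083 in wild type, and there the groups did not overlap. Of the 11 tested member probe sets 2 had no overlap in MAS5, against a background of 12.7%, and 0 had none in GCRMA, against 12.4%. The average of both Kdm1a probe sets differed by 0.18 (limma adjusted p = 0.425). The genes whose pattern was most like that of 1426762_s_at were Fam117a, Trim41 and Hnrnpul2, with Pearson correlations of 0.998, 0.992 and 0.990 over the 6 arrays among 9024 genes compared. Of those genes 171 exceeded 0.9, and the arrays share numbers in pairs, so the likeness is a description of these 6 arrays. Fam117a, the closest, itself differed by 0.40 (limma adjusted p = 0.238).

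Kdm3a, which acts on mono- and dimethylated lysine 9 and is a hypoxia-induced gene in human cells, varied most over the arrays among the tested member probe sets. Its single probe set, 1426810_at, read 9.92, 10.53 and 10.96 in the knockdown, against 10.13, 10.47 and 10.55 in wild type. Knockdown array 1 was the lowest of the 6 and knockdown array 3 the highest, a range of 1.04, where the median range over all tested probe sets was 0.56. The within-number differences were -0.21, 0.065 and 0.41, and the group difference was 0.089 (interval -0.27 to 0.45, limma adjusted p = 0.822). Its interval without the block was -0.57 to 0.75. In MAS5, knockdown array 3 stood out in the same way, with 2837, 3308 and 4599 in the knockdown, against 2824, 3152 and 3093 in wild type. The MAS5 difference was 0.22 (adjusted p = 0.656 in limma), with 0.0066, 0.070 and 0.57 in numbers 1 to 3, so number 1 had the opposite sign to GCRMA.

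Neither relative of Kdm3a passed the test. Kdm3b, at 1428320_at, read 8.24, 8.63 and 7.93 in the knockdown and 8.16, 8.24 and 8.10 in wild type. The knockdown values enclosed all wild type values, with SDs of 0.35 in the knockdown and 0.071 in wild type, and the difference was 0.10 (interval -0.24 to 0.44, limma adjusted p = 0.782). In MAS5 its intensities were 1004, 1144 and 906 in the knockdown against 793, 873 and 891 in wild type, with no overlap and a difference of 0.25 (adjusted p = 0.539 in limma). Jmjd1c, whose activity on lysine 9 is less settled than that of Kdm3a, read 8.87, 9.15 and 9.07 in the knockdown and 9.01, 8.96 and 8.98 in wild type at 1426900_at. The wild type values lay inside the range of the knockdown values, with SDs of 0.14 in the knockdown and 0.027 in wild type. Its difference was 0.045 (interval -0.23 to 0.32, limma adjusted p = 0.886), and in MAS5 it had the opposite sign, at -0.15.

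The Kdm4 genes encode the enzymes that act on trimethylated lysine 9 and, in the case of Kdm4a to Kdm4c, also on lysine 36. Kdm4a read 9.15, 9.04 and 9.31 in the knockdown and 8.96, 9.23 and 9.28 in wild type at 1435340_at. The arrays interleaved, and the difference of 0.0095 was the smallest among the tested member probe sets (interval -0.28 to 0.30, limma adjusted p = 0.978). Kdm4b read 7.54, 7.33 and 7.78 in the knockdown and 7.64, 7.57 and 7.70 in wild type at 1424044_at, so the knockdown arrays again enclosed the wild type ones. It was one of 2 representatives below 0, with a difference of -0.087 (interval -0.36 to 0.18, limma adjusted p = 0.761), and its MAS5 difference was -0.25. Kdm4c read 8.20, 8.51 and 8.62 in the knockdown and 8.16, 8.57 and 8.36 in wild type at 1424458_at. The number 1 arrays were the lowest in both groups, and the difference was 0.083 (interval -0.19 to 0.36, limma adjusted p = 0.777).

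Of the PHD finger enzymes, Phf8 was the other representative below 0. It read 9.47, 9.06 and 9.25 in the knockdown and 9.61, 9.16 and 9.38 in wild type at 1460398_at. Each knockdown array lay below the wild type array of its number by nearly the same amount, with differences of -0.14, -0.10 and -0.13, although the groups overlapped because the numbers lay further apart than that. The difference was -0.12 (SE 0.092, interval -0.36 to 0.11, limma adjusted p = 0.588), or 0.917-fold. MAS5 agreed in sign for all 3 numbers, at -0.13, -0.069 and -0.017. Lower in all 3 numbers in both summaries was 1 of 11 member probe sets, against a background of 11.3%. A second Phf8 probe set, 1439132_at, passed the filter through 3 arrays only and read between 3.98 and 4.13, with a difference of 0.045 in GCRMA and 0.41 in MAS5. The array annotation also lists a Phf8 pseudogene under a probe set of its own, and whether the Phf8 probes read it as well was not tested.

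Phf2, known in mouse and human cells as a dimethyl lysine 9 demethylase that works with Arid5b, read 8.88, 8.83 and 8.81 in the knockdown and 8.92, 8.67 and 8.68 in wild type at 1434924_at. Wild type array 1 was the highest of the 6, and the other two wild type arrays were the lowest. Its difference was 0.086 (interval -0.16 to 0.34, limma adjusted p = 0.743), with -0.034, 0.16 and 0.13 in numbers 1 to 3.

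**Figure D2:**
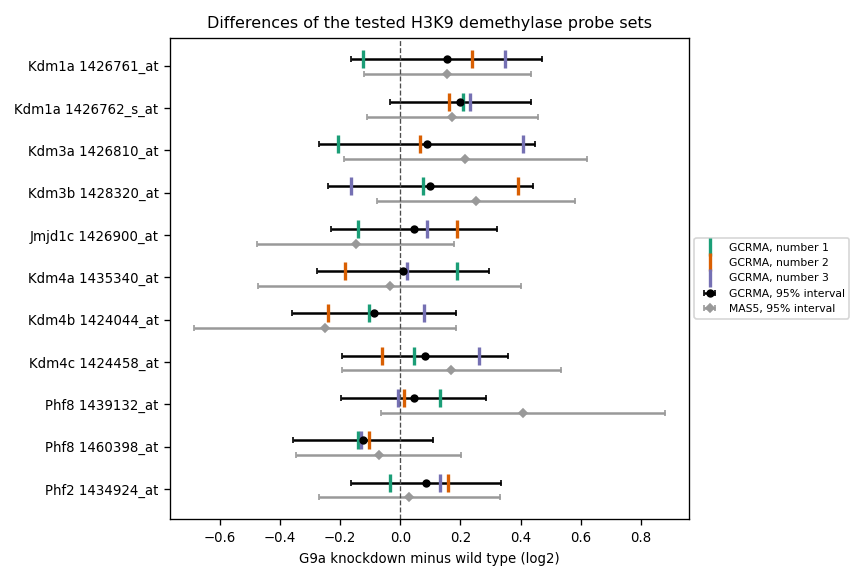
Knockdown minus wild type in log2 units (x axis) for each of the 11 tested probe sets (y axis), with black circles and bars for the blocked limma estimate in GCRMA and its 95% interval, grey diamonds for MAS5, and coloured ticks for the difference within each replicate number in GCRMA. Every interval includes 0, and the ticks of Kdm1a 1426762_s_at and Phf8 1460398_at lie on one side of it.

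The 8 member probe sets below the filter read between 2.05 and 4.12 in GCRMA, where the median of a whole array was 2.99 to 3.10, and they carry no test. They comprised 3 for Phf2, 2 for Jmjd1c and 1 each for Kdm3b, Kdm4a and Phf8. Kdm3b 1458417_at read 3.34, 3.09 and 3.05 in the knockdown and 3.03, 3.05 and 2.85 in wild type, without overlap in GCRMA and with overlap in MAS5. Phf2 1421067_a_at read 3.30, 2.96 and 3.90 in the knockdown and 2.94, 2.98 and 3.10 in wild type, where the groups overlapped and the means differed by 0.38. Jmjd1c 1439998_at ranged most, from 2.05 in wild type array 1 to 4.12 in wild type array 3, and passed log2 4 in that array alone.

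How the members varied among themselves was described by splitting each representative's squared deviations over the 6 arrays between group, replicate number and remainder. The replicate number held a larger share than the group in 8 of 9 genes. The number has 3 levels and the group 2, so the number takes more on average even where neither has an effect. How often it did so over all tested probe sets was not counted. The median share of the number was 65.5% for the members and 53.4% for all tested probe sets. The median share of the group was 6.93% for the members and 13.9% for all tested. Phf8 had 88.8% with the number and 11.1% with the group, Kdm3a 83.9% and 1.77%, and Kdm4c 80.4% and 5.35%. Kdm1a was the exception, with 53.8% for the group and 45.0% for the number. Jmjd1c had most in the remainder, at 63.6%. The numbers do not order the genes alike. In both groups Kdm3a and Kdm4c were lowest in number 1, while Phf8 was highest there. What the number stands for is not given in the labels.

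**Figure D3:**
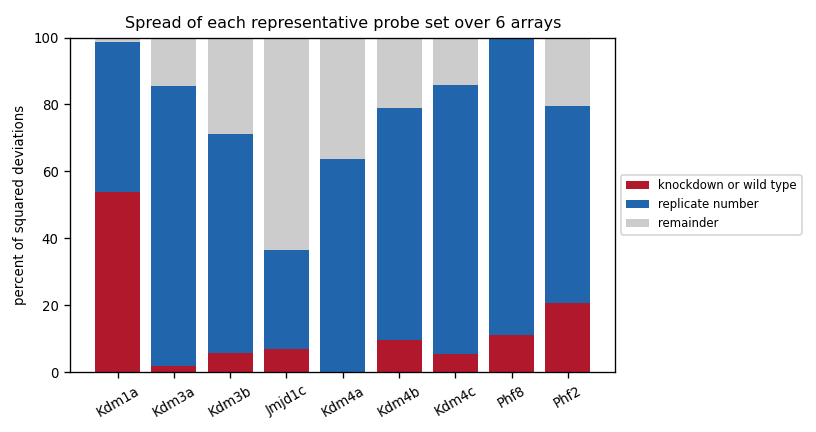
Percent of squared deviations from the mean of the 6 arrays (y axis, stacked to 100) that went with group (red), replicate number (blue) and the remainder (grey) for the representative probe set of each gene (x axis). Blue exceeds red for every gene but Kdm1a, and the number has more levels than the group, which by itself favours blue.

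Genes that work with these enzymes were read from 6 lists, of which 1 gene in all passed the test, Ehmt2 itself. Of the LSD1 complex partners 12 of 14 were tested, 9 above and 3 below 0, with a median of 0.16 and 0 called in either direction. Phf21a, the complex subunit that reads unmethylated lysine 4, had the lowest p, at 9.17 ± 0.12 in the knockdown and 8.89 ± 0.21 in wild type (difference 0.29, limma adjusted p = 0.330), and 1 of its 3 tested probe sets had the opposite sign. Gfi1b, the erythroid repressor that recruits Kdm1a, read 11.85 ± 0.20 and 11.64 ± 0.27 in knockdown and wild type (difference 0.21, limma adjusted p = 0.417). Gse1 differed by 0.20 and Zmym3, a zinc finger subunit, by -0.21. Gfi1, a close relative of Gfi1b, stayed below the filter, at 3.11 or less.

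Other histone demethylases gave 14 tested of 17 genes, 10 above and 4 below 0, with a median of 0.095 and 0 called. At an unadjusted p under 0.05 there were 3 higher and 0 lower, where the background was 6.44% and 7.24%. Without the block none of these 3 stayed under 0.05 (unadjusted limma p 0.066 for Uty, 0.225 for Kdm6b and 0.12 for Kdm1b). The 3 were Uty, the Y-linked relative of the lysine 27 demethylases, at 9.41 ± 0.26 in the knockdown and 8.99 ± 0.25 in wild type (difference 0.42, limma adjusted p = 0.211, 1 of 4 probe sets with the opposite sign), Kdm6b, a lysine 27 demethylase, with a difference of 0.25 (adjusted p = 0.360), and Kdm1b, the other FAD-dependent enzyme, at 8.07 ± 0.23 and 7.77 ± 0.22 in knockdown and wild type (difference 0.31, adjusted p = 0.361). Riox1, a JmjC hydroxylase, differed by 0.36. Kdm4d and Hr, further enzymes for lysine 9, lay below the filter, and Kdm7a, which is related to Phf8 and Phf2, differed by 0.046.

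Partners of the JmjC enzymes had 5 of 10 genes tested, 2 above and 3 below 0, with a median of -0.067 and 0 called. Zmynd8, a chromatin reader, differed by -0.30 (limma adjusted p = 0.314), Hcfc1, a transcriptional cofactor, by -0.18, Hsp90aa1 by 0.078 and Ncoa1 by 0.075 (opposite in sign at the other of its 2 tested probe sets). Arid5b, the partner of Phf2, and Zfp711, a partner of Phf8, were below the filter, at no more than 2.95 and 2.82. Among the genes that make or use 2-oxoglutarate and FAD, 17 of 18 were tested, 4 above and 13 below 0, with a median of -0.11 and 0 called. Psat1, a serine synthesis enzyme that yields 2-oxoglutarate, had the lowest p, at 10.46 ± 0.56 in the knockdown and 11.11 ± 0.59 in wild type (difference -0.66, limma adjusted p = 0.202). The aminotransferase gene Got1 differed by -0.28, the FAD synthase gene Flad1 by -0.23 and the glutamate dehydrogenase gene Glud1 by -0.21.

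The hypoxia response list had 14 of 19 genes tested, 10 above and 4 below 0, with a median of 0.19 and 0 called. Ndrg1 differed by 0.54 (limma adjusted p = 0.265), P4ha1, a collagen prolyl hydroxylase subunit, by 0.48, Ddit4, a stress inhibitor of mTOR, by 0.38, and Vhl, which targets the hypoxia factor for degradation, by -0.42. The summed log2 level of the tested genes was 129.5, 129.5 and 137.0 in knockdown arrays 1 to 3. In wild type arrays 1 to 3 it was 130.0, 128.5 and 130.9. The sum was thus highest in knockdown array 3, the array in which Kdm3a was also highest. The representatives of Kdm1a, Kdm4a, Kdm4b and Kdm4c were highest there too, and those of Kdm3b, Jmjd1c, Phf8 and Phf2 in other arrays. Kdm3a read 9.92 and 10.53 in knockdown arrays 1 and 2, where the sums were nearly equal. The part of the hypoxia response in the Kdm3a value was not tested. Among the H3K9 methyltransferases 6 of 9 were tested, 2 above and 4 below 0, with a median of -0.060. Besides Ehmt2, Setdb1 differed by -0.11 (opposite in sign at 1 of its 3 tested probe sets), Ehmt1, which encodes GLP, by 0.099 and Setdb2 by -0.057. Ehmt2, called lower, was the target of the knockdown and makes up the whole background of probe sets called lower. At an unadjusted p under 0.05 there were 1 higher and 0 lower among the LSD1 complex partners, 0 and 1 among the JmjC partners, 0 and 1 among the 2-oxoglutarate and FAD genes, 1 and 1 in the hypoxia list and 0 and 1 among the methyltransferases, again beside 6.44% higher and 7.24% lower over the array.

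**Figure D4:**
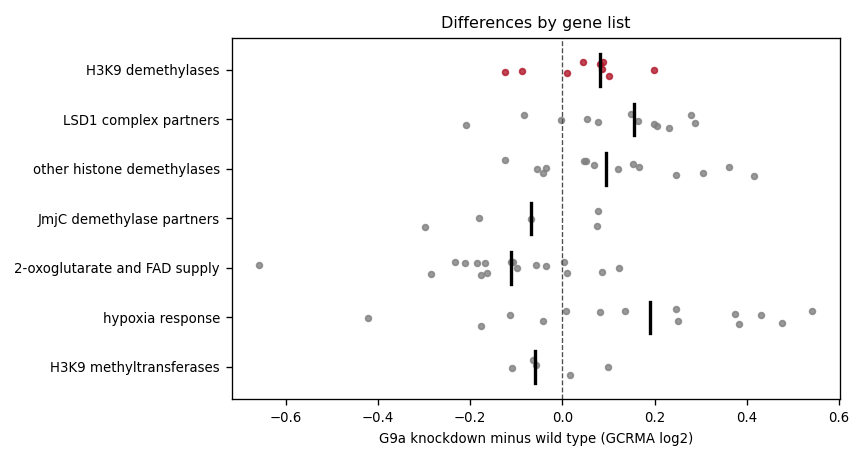
Knockdown minus wild type in GCRMA log2 units (x axis) for the representative probe set of every tested gene, by list (y axis), with the H3K9 demethylases in red and the black bar at each list's median. Ehmt2, at -2.87, lies outside the plotted range and is not drawn, and the 9 demethylase genes lie between -0.12 and 0.20.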

How the data were processed

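RNA from 3 G9a knockdown and 3 wild type hybridizations was summarised by the authors in 2 ways, giving 12 columns for 6 arrays, 6 of each. Deposited MAS5 values are linear intensity, and the 2% trimmed mean of every array was 500.0. Deposited GCRMA values are on the log2 scale, from 0.69 to 16.49. Both methods are named per the labels, without versions or settings. No 2 columns were identical.

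Genes came from the platform annotation, which names 1 gene for 34958 probe sets, and 99.4% of those gene identifiers matched RefSeq (GRCm38.p6). The files name no build, so coordinates are given for the RefSeq promoter windows alone. The 64 control probe sets were left out, and the 17028 probe sets that exceeded log2 4 in at least 3 arrays were tested with limma 3.58.1 in R 4.3.3 (group and replicate number as terms, Benjamini-Hochberg adjustment over all, threshold 0.05). MAS5 was tested as log2(value + 1). The blocked fit alone was tested on simulated data. The planted differences were larger than any member difference, so that check does not cover differences as small as those of the members. The number of arrays limits the precision.

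Same-numbered arrays deviated together from their group means (correlations 0.72, 0.57 and 0.37, against -0.59 to 0.17 between different numbers). The block was set with the choice of these genes, and the labels do not explain the numbers, so this check is the one sign that they pair the arrays.

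The members, the lists and the tests were chosen with earlier results of these data known. Genes named were every member probe set, Ehmt2, up to 4 genes of each list by lowest p, and the 3 most like Kdm1a, with markers, and Gfi1, Kdm4d, Hr, Kdm7a, Arid5b and Zfp711 added after their values were seen. Alternatives were no block, MAS5 (also as log2(value + 16)), no filter or one at log2 6, median centring, a variance trend, array weights, gene means and leaving out each number.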

Additional observations from a re-analysis of the deposited data

How the results depend on the processing

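The count of demethylase probe sets called was 0 under all 12 alternatives, and none of 108 alternative values of the 9 gene differences passed the threshold (smallest limma adjusted p 0.276). No probe set of the whole array, Ehmt2 included, was called in MAS5, with no filter or with number 1 or 2 left out. A count of 0 members says little in those settings. Of the 108 values 98 kept their sign. No block, no filter, the filter at log2 6 and a variance trend leave the difference itself unchanged. Its sign could not reverse there, nor with gene means for genes with 1 tested probe set. The reversed ones were Jmjd1c at -0.15 in MAS5 with either pseudocount, Kdm4a at -0.035 in MAS5 with either pseudocount and -0.030 with array weights, and values with 1 replicate number left out. Leaving out each number in turn gave -0.026 to 0.14 for Jmjd1c, 0.18 to 0.22 for Kdm1a, -0.072 to 0.24 for Kdm3a (lowest without number 3), -0.045 to 0.23 for Kdm3b (lowest without number 2), -0.081 to 0.11 for Kdm4a, -0.17 to -0.012 for Kdm4b, -0.0075 to 0.16 for Kdm4c, 0.049 to 0.15 for Phf2 and -0.14 to -0.12 for Phf8. Kdm1a, Kdm4b, Phf2 and Phf8 kept their sign under every alternative run, among them those that leave the difference unchanged. The cause of the reversals was not tested. Those in MAS5 and with array weights used all 6 arrays, and the left-out fits used fewer.

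Over all probe sets, 2 were called with the replicate number as a block, 1 without the block, 0 in MAS5 with either pseudocount, 0 without a filter, 8 with the stricter filter, 8 with a variance trend, 4 with array weights, 4 as gene means, and 0 to 1 with a number left out. Counted by representative probe sets, the lists had 1 gene called with the block, Ehmt2, and again 1 with the stricter filter, centring, a variance trend, array weights or gene means. They had 0 without the block (where the other Ehmt2 probe set was called), in MAS5, with no filter and with any number left out.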
